A study of Mus musculus with 39 samples.

Results

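DNA methylation of wild-type (WT) liver was set against that of WT mouse embryonic stem cells (mESC) treated with retinoic acid (RA), over every 200 bp genome tile with a value in both. These tiles numbered 228127 of the 377684 in the deposited tile table, or 60.4%, and none was chosen by its level. Another 109679 tiles had a liver value and no RA-treated value (liver mean 65.7%), and 23887 had the reverse (RA-treated mean 51.9%). The series has 39 libraries in 10 groups and was made to study the loss of p53, but only the WT groups were used here. The liver group has 3 RRBS libraries from male mice killed at 16 weeks, the WT offspring of p53 heterozygous parents. The mESC group has 5 RRBS libraries of WT lines, grown out of morulas of embryonic day 2.5 from matings of heterozygous mice of the 129s-Trp53tm2Tyj/J strain, on irradiated feeder cells in 2i medium. After removal of the feeders, these cells were kept in differentiation medium for 16 hours and then in 1 uM RA, renewed daily, for 4 days. Another group, naive WT mESC before RA (5 RRBS libraries), was used to sort tiles, and its level is also given beside the pair. That level does not enter the comparison. Oxidative RRBS groups of RA-treated WT mESC (4 libraries) and naive WT mESC (5 libraries) gave further levels, described below. The labels name no allele or agent carried by all 3 RRBS groups. The labels give neither the sex nor the number of the mESC lines.

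Methylation of cytosine in CpG dinucleotides is laid down by de novo methyltransferases and copied at each division by a maintenance methyltransferase. TET enzymes oxidise 5-methylcytosine (5mC) to 5-hydroxymethylcytosine (5hmC). Stem cells held in the naive state by 2i carry little methylation and gain it as they leave that state, while adult somatic tissue is methylated over most of the genome except at CpG islands, the CpG-dense stretches at many gene starts. Reduced representation bisulfite sequencing (RRBS) reads MspI fragments, which favours CpG-rich DNA, and does not separate 5mC from 5hmC. Their sum is called total methylation here. Oxidative RRBS (oxRRBS) reads 5mC alone. No oxRRBS of liver was analysed here.

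Each group is 1 pooled column of levels with no read counts. Depth is therefore unknown, no level carries an SD between libraries, an interval or an n, and no difference was tested. A difference between liver and RA-treated mESC also cannot be told apart from differences in sex, strain, age, culture or sequencing run, and in bulk liver a change in the mix of cell types cannot be told apart from a change within a type. The headings of the tile table name neither state nor tissue. The first set of columns was taken as naive, the second as RA-treated and the column headed WT of the third set as liver. Over the 95601 tiles with values in both mESC sets and listed CpGs, the WT column of the second set differed by a mean of 4.76 percentage points (points) from the RA-treated CpG table and by 12.3 points from the naive one. The corresponding values for the first set were 14.0 and 3.76 points. No such check was made for liver. The third set also holds a WT column with the suffix D, which the sources used here do not define, so whether the column used pools all 3 liver libraries is not known. Gene names could not be attached, since the gene table at hand is on another genome build than the mm9 positions of the files. Regions are therefore described by position, CpG density and level.

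Liver was the more methylated of the pair. Mean total methylation over the tiles was 61.9% in liver and 41.5% in RA-treated mESC, a difference of 20.4 points, and the medians were 80% and 47.9%. The difference (liver minus RA-treated) had a median of 20.9 points with quartiles at 0.556 and 35.7 points, and an SD over tiles of 23.1 points. Liver was higher at 78.5% of tiles, lower at 18.1% and equal at 3.38%. At a difference of at least 25 points, the limit used below for calling a tile higher or lower, 98094 tiles were higher in liver, 43.0% of all, and 5851 were lower, 2.56% of all. That is 16.8 higher tiles for each lower tile. At 50 points or more, 23278 tiles (10.2%) were higher and 1157 (0.507%) lower. With the oxRRBS 5mC level of RA-treated mESC (39.6%) in place of their total, liver stood 22.3 points higher. Across tiles the levels had a Pearson's r of 0.790, a description over tiles that share both pools and their base composition.

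**Figure D1:**
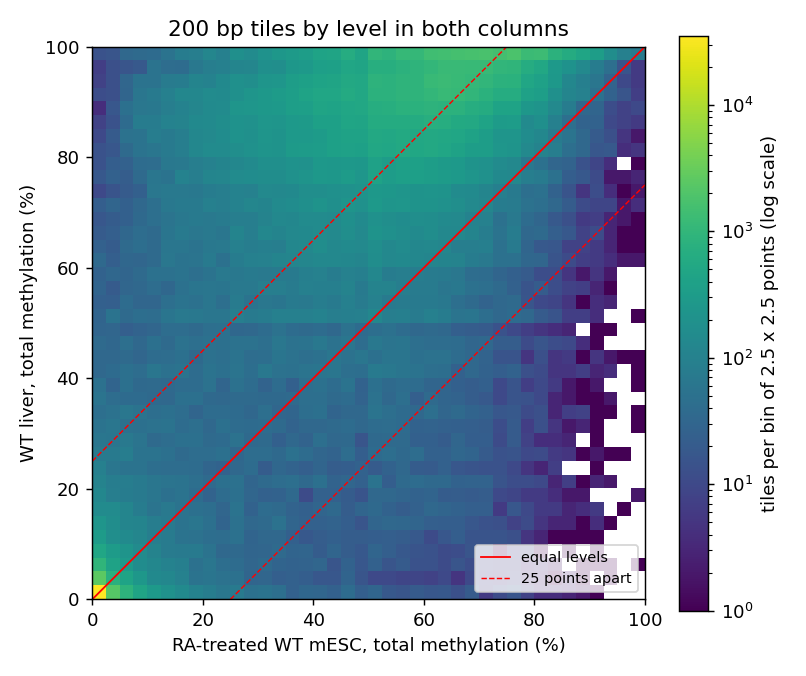
Tiles counted by total methylation in RA-treated WT mESC (horizontal axis, %) and WT liver (vertical axis, %), with colour giving the number of tiles per bin on a log scale. One dense group lies near 0 in both columns, and a broad group lies at 80% or more in liver over intermediate levels of RA-treated mESC. Of all tiles, 43.0% lie on or above the upper dashed line.

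The levels of liver were near the ends of the scale, and those of RA-treated mESC in the middle. Liver had 50.4% of tiles at 80% or more, 25.04% between 20% and 80%, and 24.6% under 20%. In RA-treated mESC these shares were 4.45%, 67.7% and 27.9%. The largest joint class, 102595 tiles or 45.0% of all, was intermediate in RA-treated mESC (mean 57.1%) and high in liver (mean 91.7%). Its naive mean was 40.96%. Of the tiles that were intermediate in RA-treated mESC, 66.5% were at 80% or more in liver, 30.4% were intermediate there too, and 3.13% were under 20%. In liver 7.97% of tiles were listed at 100%, against 0.0583% in RA-treated mESC.

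Most tiles that were low in RA-treated mESC were low in liver too. Of the 63618 tiles under 20% in RA-treated mESC, 80.4% were under 20% in liver, with means of 2.01% and 2.08%. These 51152 tiles were richer in CpGs than tiles at large. Of them, 54.1% had at least 3 CpGs in the table of single CpGs, compared with 14.5% of all tiles, and 13.5% had 9 or more. Another 3671 tiles, 5.77% of the low class, were at 80% or more in liver. They averaged 89.2% in liver, 13.4% in RA-treated mESC and 7.27% in naive mESC (3265 tiles with a naive value), and 8.28% of them had 3 or more listed CpGs. The opposite switch was rare. Of the 10145 tiles at 80% or more in RA-treated mESC, 102 were under 20% in liver (1.01%), at a mean of 85.6% in RA-treated mESC and 11.3% in liver. Their RA-treated 5mC, a level that did not choose them, averaged 69.5%.

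Sorting by the naive level showed where liver stood farthest above RA-treated mESC in points. Over the 199643 tiles with a naive value, the means were 28.9% in naive mESC, 41.8% in RA-treated mESC and 62.5% in liver. The levels rose in that order at 66.6% of these tiles, RA-treated mESC were above both others at 15.8%, and liver was below both at 9.04%. Tiles at 5% to 20% in naive mESC differed by the most points between liver and RA-treated mESC. Their 29723 members averaged 12.2% in naive mESC, 33.2% after RA and 67.3% in liver, 34.1 points above RA-treated mESC, and 67.8% of them were higher in liver by at least 25 points. The gap then narrowed with the naive level, to 26.0 points at 20% to 40%, 21.3 points at 40% to 60%, 18.8 points at 60% to 80% and 15.1 points above that. RA-treated means rose from 33.2% to 76.9% over these classes, which left less room for liver above them. The gap as a share of that room was not computed, so the order of the classes holds in points only. In the last class RA-treated mESC (76.9%) were below the naive level (84.7%) that defined it. Tiles under 5% in naive mESC averaged 4.66% after RA and 12.8% in liver, but their medians were 0.805% and 0.794%. In that class 13.9% of tiles were higher in liver by at least 25 points and most of the others stayed near 0.

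The number of CpGs that the single CpG table lists in a tile served as a measure of CpG density. That table holds only mESC values, so 0 listed CpGs means that none is in that table, not that the tile has none. Levels fell with density in each group. In the 128818 tiles with 0 listed CpGs liver averaged 75.3% and RA-treated mESC 50.5%, a difference of 24.8 points. With a single listed CpG the means were 64.9% and 44.9%, and with 2 they were 47.6% and 30.8%. Tiles with 3 to 4 listed CpGs averaged 24.7% and 14.3%, and those with 5 to 8 averaged 5.11% and 2.46%. In the 6955 tiles with 9 or more, called CpG-dense here, the means were 1.05% and 0.488%. There 0.590% of tiles were higher in liver by at least 25 points, and no tile was lower by as much.

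Density and naive level were then combined. Among tiles at 5% to 20% in naive mESC, the difference was 36.6 points with 0 listed CpGs, 29.8 with a single CpG, 31.3 with 2, 34.8 with 3 to 4, 38.9 over the 237 tiles with 5 to 8, and 45.05 over the 8 tiles with 9 or more. In this class liver averaged between 63.6% and 69.8% and RA-treated mESC between 28.7% and 33.8% over the density classes up to 8 CpGs. Among tiles under 5% in naive mESC the difference fell with density, from 21.7 points with 0 listed CpGs to 12.1, 7.18, 4.02, 1.53 and 0.507 points in the denser classes. The fall of the difference with density was thus seen in the class under 5% and not in the class from 5% to 20%. Neither class holds the naive level fixed. From 0 to 9 or more listed CpGs the naive mean fell from 1.77% to 0.358% in the class under 5%. It fell from 12.4% to 9.20% in the class from 5% to 20%. Whether the fall of the difference differed between these classes was not tested.

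**Figure D2:**
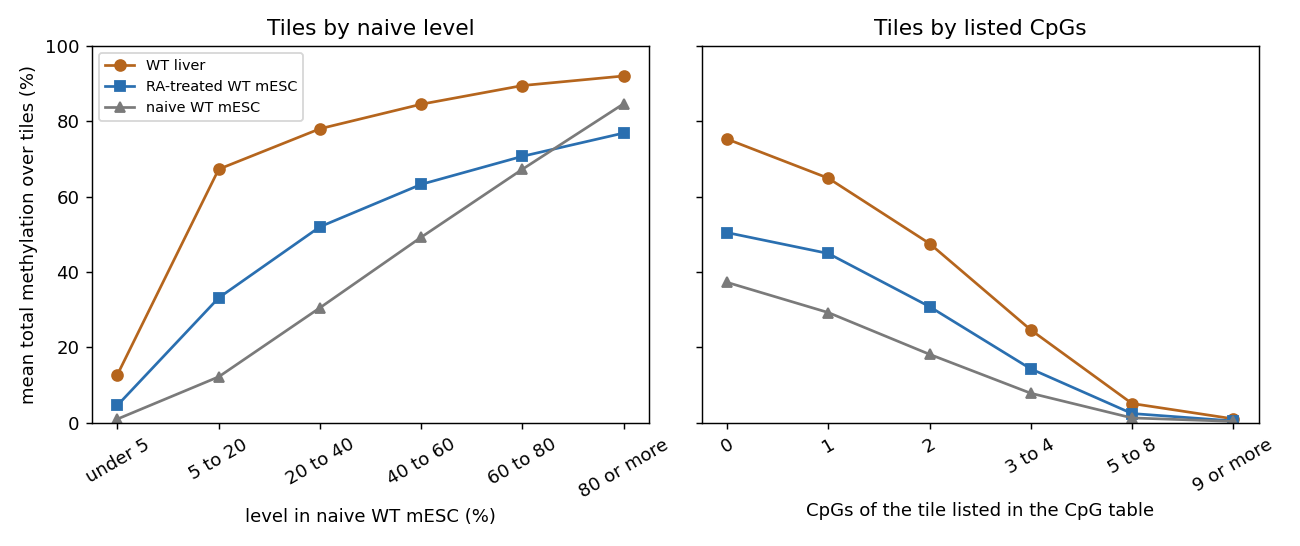
Mean total methylation over tiles (%) in WT liver, RA-treated WT mESC and naive WT mESC, for tiles sorted by naive level (left) and by the number of CpGs listed in the single CpG table (right). The distance between liver and RA-treated mESC is widest at 5% to 20% in naive mESC, and all 3 lines meet near 0 in tiles with 9 or more CpGs.

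Methylation rose with distance from CpG-dense tiles, and liver had the higher mean at each distance. Tiles 200 bp away averaged 1.64% in liver and 0.767% in RA-treated mESC, and at 400 to 600 bp the means were 5.24% and 2.47%. At 800 to 1000 bp liver was at 14.7% and RA-treated mESC at 7.68%, and at 1200 to 2000 bp they were at 34.2% and 20.9%. From 2200 to 4000 bp the means were 51.8% and 35.1%, and beyond 50000 bp they were 71.2% and 47.4%. The share of tiles higher in liver by at least 25 points climbed over the same distances from 1.02% at 200 bp to 28.9% at 1200 to 2000 bp and 49.98% beyond 50000 bp. The share lower by at least 25 points did not follow that course. It was 0% at 200 bp, 2.88% at 1200 to 2000 bp, highest at 4200 to 10000 bp with 4.50%, and 2.52% beyond 50000 bp. Tiles with 0 or a single listed CpG, taken alone, gave 3.98% lower at 1200 to 2000 bp, 5.07% at 4200 to 10000 bp and 2.68% beyond 50000 bp. All these shares are of all tiles at a distance, and tiles under 25% in RA-treated mESC cannot be lower by as much. Near CpG-dense tiles most were under it, with RA-treated medians of 0.3125% at 200 bp and 10.2% at 1200 to 2000 bp. Shares of only the tiles that could be lower were not computed by distance.

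**Figure D3:**
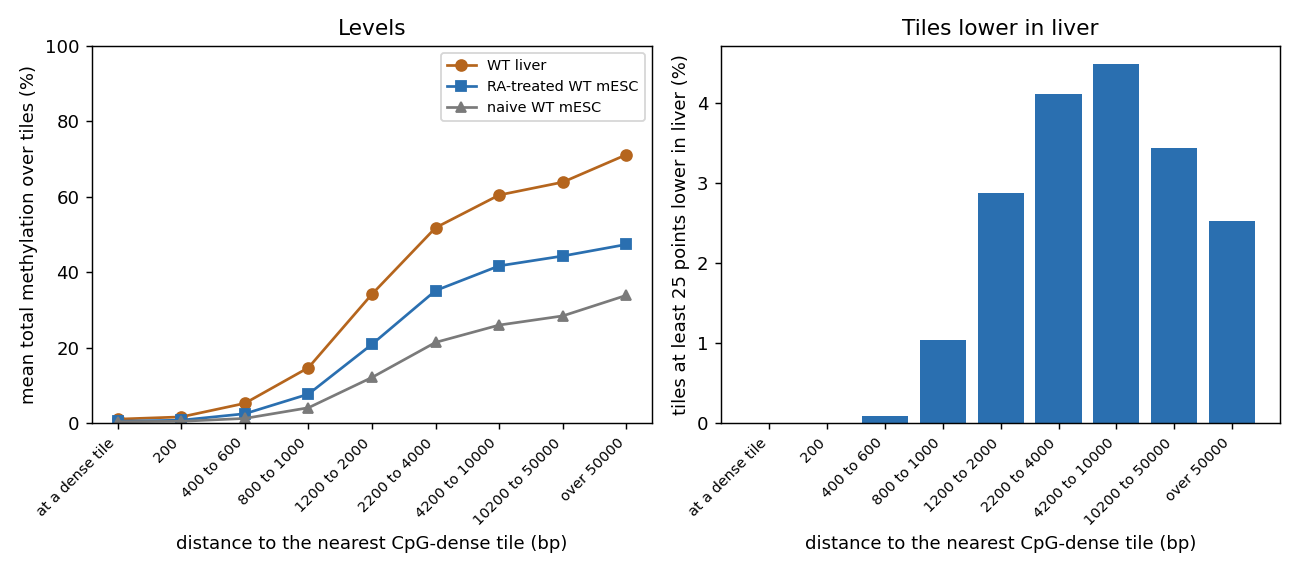
Tiles by distance (bp) to the nearest tile with 9 or more listed CpGs. Left, mean total methylation (%) in WT liver, RA-treated WT mESC and naive WT mESC. Right, the percent of all tiles at each distance that were at least 25 points lower in liver, highest at 4200 to 10000 bp. Most tiles near CpG-dense tiles were under 25% in RA-treated mESC and so could not be lower by 25 points.

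The 5851 tiles lower in liver averaged 20.8% in liver and 60.9% in RA-treated mESC, the values that chose them. Only a tile at 25% or more in RA-treated mESC can be lower by 25 points, so the 158737 tiles at that level are the ones to read them against. The naive level averaged 37.2% in the lower tiles (5007 with a naive value) and 39.9% in those 158737. Naive 5hmC, the naive total minus the naive 5mC level, averaged 8.68 and 7.74 points. Of the lower tiles, 10.5% lay more than 1000 and at most 10000 bp from a CpG-dense tile, compared with 5.71% of the tiles at 25% or more. At 40% to 60% naive total, the share of tiles lower in liver was 3.04% where naive 5hmC was below 0, 3.12% at 0 to 10 points, 3.21% at 10 to 20, 4.10% at 20 to 30 and 4.48% at 30 or more. At 20% to 40% naive total it was 3.88%, 3.45%, 4.18%, 4.81% and 5.78%. In the lowest and highest 5hmC class the SD of the difference over tiles was 18.3 and 21.9 points at 40% to 60%. It was 21.8 and 25.3 points at 20% to 40%. The mean differences were 21.3 and 20.3 points, and 25.5 and 23.8 points. Whether the share rose beyond this wider spread was not tested. A 5hmC value below 0 is an error of the subtraction, and the number of reads behind these values is not known.

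Differences of neighbouring tiles were alike in both directions. Over 98405 pairs of tiles 200 bp apart, the differences of the left and the right tile had a Pearson's r of 0.735, a description over pairs that can share fragments. Where the left tile was higher in liver by at least 25 points, the right tile was too in 72.0% of pairs, compared with 38.7% over all pairs. Where the left tile was lower by at least 25 points, 44.0% of right tiles were too, compared with 2.34% over all pairs. In 71.5% of the latter pairs the right tile was lower in liver by some amount, against 21.4% over all pairs.

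The mean was higher in liver on all 21 chromosomes with tiles. On the 19 autosomes the difference ran from 17.4 points on chromosome 19 to 23.7 points on chromosome 10, with a mean of 20.3 points and an SD over autosomes of 1.57 points. RA-treated mESC averaged 38.9% to 43.5% and liver 56.4% to 66.9% on the autosomes. Chromosome 10 also had the lowest share of tiles lower in liver by at least 25 points, 1.92%, and chromosome 19 the highest, 3.46%. Chromosome X stood outside the autosomes, with a difference of 29.2 points over 4614 tiles. There 59.1% of tiles were higher in liver and 0.932% lower by at least 25 points.

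Over all its tiles, chromosome X was lower than autosomes of like CpG density in RA-treated mESC and higher in liver. Chromosome X averaged 39.3% in RA-treated mESC, 68.5% in liver and 32.1% in naive mESC. Autosomes given the same mix of listed CpG numbers averaged 44.6%, 66.3% and 31.9%. Chromosome X was thus 5.32 points below the autosomes after RA, 2.16 points above them in liver and 0.212 points above them in naive mESC. These means rest mainly on the 3267 X tiles with 0 listed CpGs, where RA-treated mESC were at 45.3% on X and 50.6% on autosomes and liver at 78.5% and 75.2%. Other classes did not all follow. Liver was lower on X with 2 listed CpGs (46.1% against 47.6%) and with 3 to 4 (20.4% against 24.7%), and RA-treated mESC were higher on X with 5 to 8 (2.79% against 2.46%). Both were so with 9 or more, at 0.726% against 1.05% in liver and 0.692% against 0.486% in RA-treated mESC. The difference between liver and RA-treated mESC was larger on X than on autosomes in each density class up to 8 listed CpGs, at 33.2 against 24.6 points with 0 listed CpGs and at 12.7 against 10.3 points with 3 to 4. In the 72 CpG-dense X tiles it was 0.0344 points, against 0.566 points on the autosomes. The liver mice were male, and the sex of the mESC lines is not in the labels, so sex and cell state cannot be told apart here. On chromosome Y 17 tiles had values in both columns, with means of 50.3% in RA-treated mESC and 89.0% in liver.

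**Figure D4:**
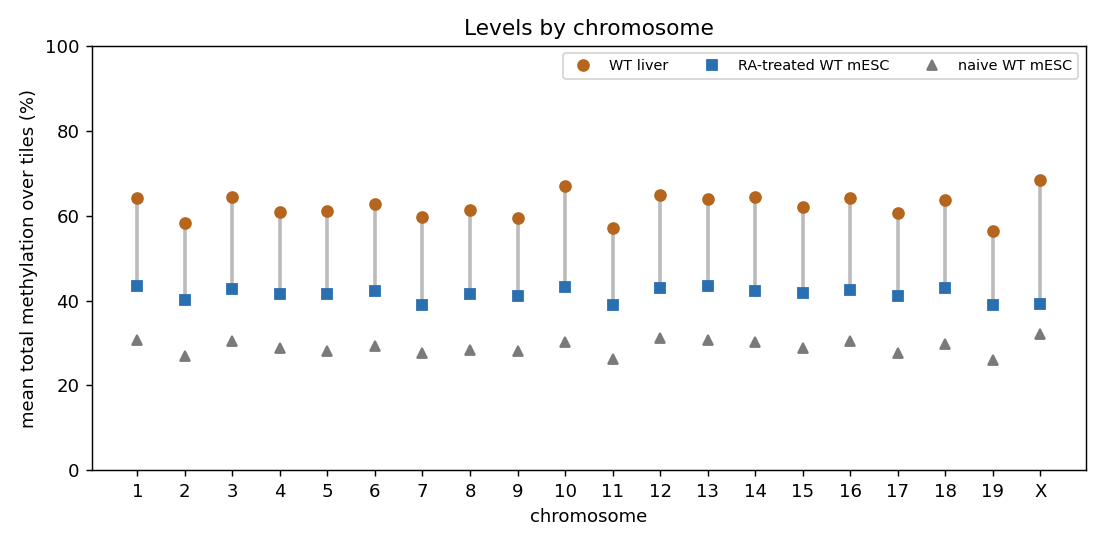
Mean total methylation over tiles (%) on each autosome and on chromosome X, in WT liver, RA-treated WT mESC and naive WT mESC, with a grey line from RA-treated mESC to liver. The line is longest on chromosome X, at 29.2 points, and spans 17.4 to 23.7 points on the autosomes.

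The difference was spread along the genome. All 2494 windows of 1000000 bp with at least 20 tiles had the higher mean in liver, with a median difference of 21.8 points, quartiles at 17.2 and 29.3 points and a range from 2.17 to 48.9 points. Autosomal windows were ranked by their share of tiles under 5% in naive mESC, and split at the quartiles into 4 classes of 591 to 603 windows. The class with the lowest share, a median of 3.85%, had a median difference of 31.7 points, with liver at 82.3% and RA-treated mESC at 49.8%. The class with the highest share, a median of 37.2%, had 16.8 points, with liver at 52.6% and RA-treated mESC at 35.6%. Restricted to tiles at 20% or more in naive mESC, the medians of these 2 classes were 28.9 and 22.0 points.

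The windows at either end were named for their difference and are therefore given with no test. Chromosome X had 112 of the 2494 windows and 15 of the 74 with a difference over 40 points. Of the 5 with the largest difference, which hold 22 to 30 tiles each, 3 were on chromosome X, and the others were at 27000001 to 28000000 on chromosome 16 and 90000001 to 91000000 on chromosome 4. In the chromosome 16 window, with 28 tiles, liver averaged 85.4%, RA-treated mESC 36.5% and naive mESC 22.9%. The window with the smallest difference was at 147000001 to 148000000 on chromosome 2, where 95 tiles averaged 28.4% in liver and 26.3% in RA-treated mESC, and 55.8% of tiles were under 5% in naive mESC. The window at 52000001 to 53000000 on chromosome 6 averaged 23.0% and 18.3%, and 59.4% of its tiles were under 5% in naive mESC. There the 33 tiles at 20% or more in naive mESC were 19.9 points higher in liver. The corresponding difference was 20.6 points over 37 tiles at 74000001 to 75000000 on chromosome 2. It was 11.9 points over 26 tiles in the window of smallest difference, and 8.01 points over 20 tiles at 91000001 to 92000000 on chromosome 7. The window at 86000001 to 87000000 on chromosome 17 had 33.1% of its tiles under 5% in naive mESC. Its 163 tiles averaged 44.1% in liver and 40.1% in RA-treated mESC, and the 77 tiles at 20% or more in naive mESC were 5.61 points higher in liver. That was the lowest such value among the 2217 windows with at least 20 tiles of that kind, whose median was 23.4 points.

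Tiles that differed by at least 50 points were joined into runs of at least 3, with starts no more than 1000 bp apart and no failing tile between them. There were 1220 runs higher in liver, with 4506 tiles on 21 chromosomes, and 5 runs lower in liver, with 16 tiles. Runs held 19.4% of the tiles higher by at least 50 points and 1.38% of those lower by as much. A run needs neighbours that pass too, and 10.2% of all tiles were higher by 50 points against 0.507% lower. The shares in runs therefore do not compare how closely higher and lower tiles cluster. In the higher runs liver averaged 87.6% and RA-treated mESC 21.9%, and naive mESC averaged 9.60% over 4260 tiles. RA-treated 5mC in them averaged 21.2%. Of their tiles, 81.8% had 0 or a single listed CpG. The share was 87.3% among all tiles higher by at least 50 points, from which runs were drawn, and 77.7% among all tiles. In the lower runs liver averaged 8.84%, RA-treated mESC 70.8% in total methylation and 56.9% in 5mC. The total chose these tiles and the 5mC level did not. Over all tiles RA-treated total and 5mC averaged 41.5% and 39.6%. Over tiles at least 50 points higher in liver they averaged 27.9% and 29.8%. The 10 higher runs with the most tiles had 9 to 18 tiles each, means of 78.6% to 95.3% in liver and 9.16% to 26.1% in RA-treated mESC, and naive means of 2.83% to 15.7%.

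The longest run lay on chromosome 9 at 79747601 to 79751400 and had 18 tiles over 3800 bp. Liver ranged from 85.9% to 100% over these tiles and RA-treated mESC from 17.8% to 32.1%. The naive mean there was 10.3%. A run of 14 tiles on chromosome 12 (114015201 to 114020200) averaged 84.9% in liver and 23.2% in RA-treated mESC, and the 12 tiles within 5000 bp outside it were alike, at 80.3% and 21.9%. On chromosome 7 (4981201 to 4983800) 12 tiles with 31 listed CpGs, the most of the named runs, averaged 94.8% in liver, 18.6% in RA-treated mESC and 2.83% in naive mESC. Runs of 9 tiles on chromosome 16 (27423401 to 27425200) and chromosome 15 (30023401 to 30025200) had no listed CpG and averaged 91.2% and 86.2% in liver, compared with 14.8% and 10.4% in RA-treated mESC. The chromosome 16 run lies in the window of largest difference named above, and its 9 tiles are among the 28 that give that window's mean.

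A run on chromosome 5 (111847801 to 111850200) lay beside an unmethylated stretch. Its 9 tiles ranged from 70.9% to 88.4% in liver and from 1.42% to 21.1% in RA-treated mESC. Of the 8 tiles within 4000 bp to the left of its centre and outside the run, 6 were under 5% in liver, and those nearest to the run were at 18.5% and 35.8%. RA-treated mESC were at 1.57% or less in all 8. The nearest CpG-dense tile was 1000 bp from the run.

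The 5 runs lower in liver lay on chromosomes 10, 11 and 4. The run with 4 tiles, on chromosome 10 (77760201 to 77761200), read 14.3%, 3.41%, 0% and 5.56% in liver. The same tiles read 90.9%, 70.5%, 51.6% and 60.5% in RA-treated mESC and 25%, 37.8%, 10.6% and 17.1% in naive mESC. Total methylation of RA-treated mESC was thus above both others at each tile. Their 5mC alone read 61.5%, 64.4%, 27.1% and 10.3%, which is below the naive total at the last tile. The mean gap to liver was 35.0 points for 5mC against 62.6 points for the total, the level that chose these tiles. On chromosome 11 (86768201 to 86768800) liver read 9.09%, 2.44% and 9.35%, RA-treated mESC 90.9%, 63.3% and 82.1%, and naive mESC 76.6%, 56.1% and 77.7%. Here both mESC columns were high and liver was low. At 149377001 to 149377600 on chromosome 4 liver read 4.94%, 2.15% and 4.17%, and RA-treated mESC 65.4%, 62.2% and 62.0%. The other runs on that chromosome were at 135770401 to 135771000, with means of 20.7% and 79.7%, and at 106978201 to 106978800, with means of 7.94% and 64.6%.

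**Figure D5:**
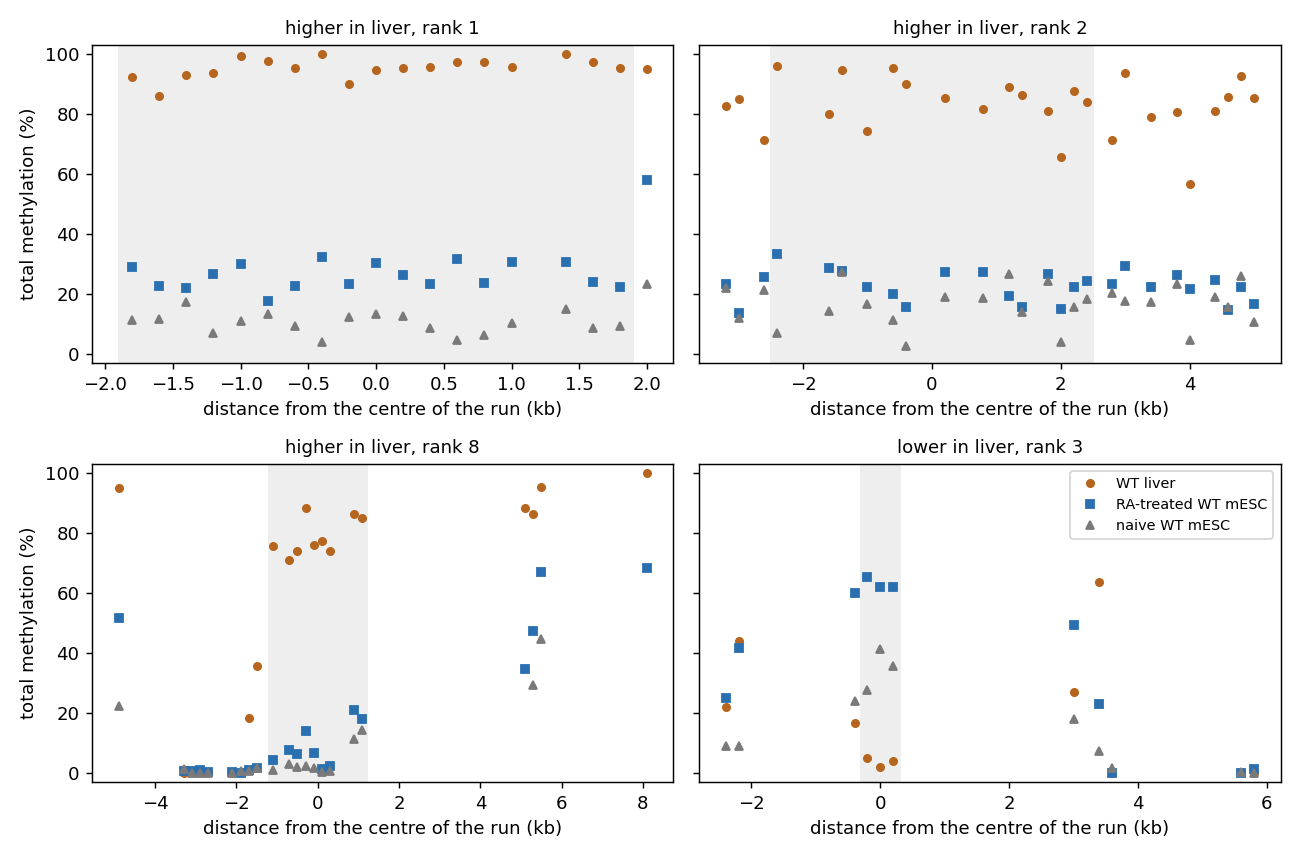
Total methylation (%) of single tiles in WT liver, RA-treated WT mESC and naive WT mESC, against distance (kb) from the centre of the run, with the run shaded. The panels show the higher runs on chromosomes 9 (rank 1), 12 (rank 2) and 5 (rank 8) and the lower run at 149377001 on chromosome 4 (rank 3). The separation within the shading is set by the 50 points that define a run, and what the panels add is the level of the tiles around it.

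The single tiles of largest difference were named whatever their surroundings. The 10 named tiles of largest increase all read 0% in RA-treated mESC and 100% in liver, and no other tile did. They lay on 9 chromosomes, and none had a listed CpG. Of the 16 tiles with values within 1000 bp of them, 12 were higher in liver by at least 25 points, against 43.0% of all tiles. Among tiles 200 bp to the right of any higher tile, a shorter distance, 72.0% were. The 12 included all 4 beside the tile at 68235201 to 68235400 on chromosome 8. They included none of the 4 around 115013001 to 115013200 on chromosome 11. Levels of 0% and 100% are what a few reads can give. The 10 of largest decrease were lower in liver by 84.6 to 92.9 points, and liver was at 7.14% or less in each. They lay on 10 chromosomes, with RA-treated 5mC of 61.1% to 100%. Of the 17 tiles within 1000 bp of those, 4 were lower by at least 25 points, against 2.56% of all tiles. Among tiles 200 bp to the right of any lower tile, again a shorter distance, 44.0% were. At 8450201 to 8450400 on chromosome 12 liver was at 0%, RA-treated mESC at 91.2% and naive mESC at 83.3%, and at 107241001 to 107241200 on chromosome 11 they were at 0%, 84.6% and 10.2%.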

How the data were processed

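MspI-digested DNA was sequenced after bisulfite (RRBS) or oxidation and bisulfite (oxRRBS), per the labels' protocols. The submitters' processing notes name Trim Galore, BSMAP, methylKit and mm9. Tool versions, tool roles, coverage filters and the pooling of libraries are not given in the sources used for this comparison. Tile levels were deposited by the authors as fractions and were multiplied here to percent. The CpG table holds whole percent values deposited by the authors. Of the columns of levels, 11 in the tile table and 6 in the CpG table were not used.

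The members and lists were chosen with earlier results of these data known. The planned models of single libraries could not be run on pooled columns, and the gene lists were not used, for lack of an mm9 annotation. Named sites were the 10 runs with the most tiles each way, the 5 windows of largest and of smallest difference (no window was lower in liver), and the 10 tiles of largest difference each way, 1 per 1000 bp. Positions count from 1. Counting and run finding were tested on simulated data. Python 3.11.15, numpy 2.4.6 and pandas 2.3.3 were used.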

Additional observations from a re-analysis of the deposited data

How the results depend on the processing

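None of the recomputed mean differences changed sign, and counts and shares of tiles have no sign to change. By the limits given at the end of this paragraph, 25 recomputed values moved and 34 did not. The mean difference was 20.4 points. It was 22.3 with RA-treated 5mC in place of total, 22.0 with 1 tile per 1000 bp, 23.4 with each window counting once and 5.54 over the 33057 tiles with at least 3 listed CpGs. The RA-treated level from the CpG table limits the tiles to 99309, so each such value changes both the tiles and the level. The mean difference was then 13.1 points, where the tile table gave 14.6 over the same tiles. With 1 tile per 1000 bp, 57096 tiles passed 25 points upward and 3315 downward, 47.0% and 2.73% of fewer tiles. With at least 3 listed CpGs 3507 were higher and 137 lower, and from the CpG table there were 26955 and 2769, against 30465 and 2171 from the tile table over the same tiles. At 10 points 146307 were higher and 13078 lower, and at 50 points 23278 and 1157, which is 11.2 and 20.1 higher tiles for each lower one. The difference at 5% to 20% in naive mESC was 37.1 points with 5mC and 28.5 with the CpG table. On chromosome X it was 8.14 with at least 3 listed CpGs, 32.3 without tiles at 0% or 100%, and 17.8 with the CpG table. Tiles under 20% in RA-treated mESC and at 80% or more in liver were 0.920% of those with 3 listed CpGs. Runs higher in liver numbered 1220 in all, 14 among tiles with at least 3 listed CpGs, and, over the 99309 tiles, 214 from the tile table and 171 from the CpG table. No lower run was left in these 3 settings. Leaving out 0% and 100% and using the CpG table were chosen after seeing the data. A mean counted as moved beyond the SD over autosomes, 1.57 points, for want of a spread between libraries. For counts and shares the limit was a ratio of 1.5. Leaving out libraries was not run. No paired analysis was possible because each group has 1 pooled column with no replicate numbers.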
